A study of Mus musculus with 10 samples.

Results

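The expression of 9 keratin genes was followed in this comparison of lung squamous cell carcinoma (SCC) with lung, namely Krt6a, Krt6b, Krt16, Krt13, Krt4, Krt1, Krt10, Krt78 and Krt80, which are made by suprabasal or stressed cells of stratified epithelia. They were taken by name from 19092 mouse genes that could be paired with a probe, and each was read through its brightest probe. RNA had come from 5 whole-lung samples of wild type mice of genotype Lkb1f/f (WT), and from 5 whole-tumour samples of CCSPiCreLkb1f/f mice (SCC). Both groups carried the floxed Lkb1 alleles, had the strain label B6.129, were 13 months old and had received no treatment. In the SCC group the Cre recombinase iCre was driven by the promoter of CCSP, the secretory protein of airway club cells, so that Lkb1, which encodes a tumour suppressor kinase, was targeted in airway epithelium, whereas the RNA is that of all cells of the tumour piece. The labels do not say whether the 5 samples of a group came from separate animals, and the p-values measure the spread between these samples.

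Keratins are the intermediate filament proteins of epithelial cells, and each filament pairs a type I with a type II chain. In stratified epithelia the basal layer makes Krt5 with Krt14, and cells that leave it switch to other pairs, Krt1 with Krt10 in the cornifying epidermis and Krt4 with Krt13 in mucosa such as the oesophagus. Krt6a, Krt6b and Krt16 are low in resting epidermis and come up in wounds, in hyperproliferative skin and in squamous tumours, where they are known as stress keratins. Krt78 and Krt80 are type II keratins of differentiating epithelial cells. The simple epithelium of normal airways and alveoli uses Krt8, Krt18, Krt7 and Krt19 instead.

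Each array measured 41174 probes, of which 71.0% to 74.5% were well above background on 9 of the 10 arrays. SCC replicate 5 stood apart with 90.2% and a median processed signal of 251, against 116 to 169 on the other arrays. SCC replicate 2 stood apart in the squamous genes themselves, and its values are given beside those of the 9 keratins. WT replicates 1 to 4 lay on slide 1, WT replicate 5 shared slide 2 with SCC replicates 1 to 3, and slide 3 held SCC replicates 4 and 5. Among the squamous markers Krt5, Krt14, Trp63 and Dsg3, all 4 were higher in SCC, with a mean log2 signal of 4.78 to 5.18 on the WT arrays, 11.91 on SCC replicate 2 and 14.48 to 14.84 on the other SCC arrays. Dsg3 was well above background on 0 WT arrays and enters the WT mean with a background signal. No probe was paired with Stk11, the gene name of Lkb1, through the gene table used, and the deletion itself was not checked here.

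Promoter sequence was listed in the RefSeq table (build GRCm38.p6) for 3 of the 9 genes. The 250 bases before each listed start are shown 5′ to 3′ on the strand of the gene, because Krt13 and Krt78 rose strongly in SCC and Krt10 weakly. Capitals mark matches, on either strand, to 3 motifs. The AP-1 motif was searched as TGANTCA. The motif for the TATA box was the usual TATAAA. The core motif of KLF factors was CACCC. No match overlapped that of another motif.
Krt13, chr11:100120578-100120827, minus strand: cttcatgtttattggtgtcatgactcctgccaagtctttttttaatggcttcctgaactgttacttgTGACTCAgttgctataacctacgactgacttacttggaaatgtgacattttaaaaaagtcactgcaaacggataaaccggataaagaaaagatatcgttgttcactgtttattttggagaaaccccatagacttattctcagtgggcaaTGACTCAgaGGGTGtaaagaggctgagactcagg
Krt13, chr11:100121567-100121816, minus strand: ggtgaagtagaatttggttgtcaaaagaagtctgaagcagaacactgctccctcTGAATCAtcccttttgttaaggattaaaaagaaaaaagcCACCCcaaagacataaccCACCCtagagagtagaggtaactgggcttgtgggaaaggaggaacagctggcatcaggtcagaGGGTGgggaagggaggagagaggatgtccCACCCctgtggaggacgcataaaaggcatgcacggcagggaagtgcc
Krt10, chr11:99389365-99389614, minus strand: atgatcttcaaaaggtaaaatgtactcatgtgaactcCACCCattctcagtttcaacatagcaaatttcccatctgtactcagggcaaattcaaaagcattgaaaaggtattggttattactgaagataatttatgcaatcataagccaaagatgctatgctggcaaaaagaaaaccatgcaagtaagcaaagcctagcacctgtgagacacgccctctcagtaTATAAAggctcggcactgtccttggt
Krt78, chr15:101954288-101954537, minus strand: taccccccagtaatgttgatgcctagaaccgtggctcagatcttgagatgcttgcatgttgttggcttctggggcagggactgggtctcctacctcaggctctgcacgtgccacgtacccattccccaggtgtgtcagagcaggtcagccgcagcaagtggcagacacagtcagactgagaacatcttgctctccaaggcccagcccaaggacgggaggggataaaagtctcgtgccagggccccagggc
The first Krt13 window held 2 matches to the AP-1 site and the second held 1, whereas the Krt10 and Krt78 windows held none. Of 32851 RefSeq windows of the same length, 6.75% held an AP-1 match. The exact letters TATAAA were matched only in the Krt10 window, against 12.4% of all windows, and looser forms of the TATA box were not searched. Matches to the KLF core numbered 1 and 4 in the Krt13 windows and 1 in the Krt10 window, against 52.0% of all windows with at least 1. These matches describe the letters of the windows and are not evidence of binding.

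Signals below are log2 units after quantile normalization, differences are SCC minus WT, and every adjusted p for a single gene is from limma with Benjamini-Hochberg adjustment over all 30374 tested probes. A gene was called when its adjusted p was below 0.05 and its difference at least 2-fold. Of the 9 keratins 8 were called higher in SCC, none was called lower, and only Krt80 was not called. Krt6a, Krt6b, Krt4 and Krt10 were tested only through their SCC arrays, being well above background on 0, 0, 1 and 3 WT arrays. A call lower in SCC was hardly possible for these genes. Over all 15582 genes with a tested brightest probe, 24.9% were called, 11.6% higher and 13.4% lower, and over all tested probes 22.9%, 9.92% higher and 13% lower. For 6 of the 9 genes, all but Krt1, Krt10 and Krt80, the WT and SCC arrays did not overlap, which was so for 41.4% of all genes and 37.3% of all tested probes. Krt6a, Krt6b and Krt4 are among these 6, with WT signals mostly or all not well above background. The median difference of the 9 genes was 5.98, and that of all genes was -0.038. In whole tissue, more cells making a keratin and more of its RNA per cell cannot be told apart.

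**Figure D1:**
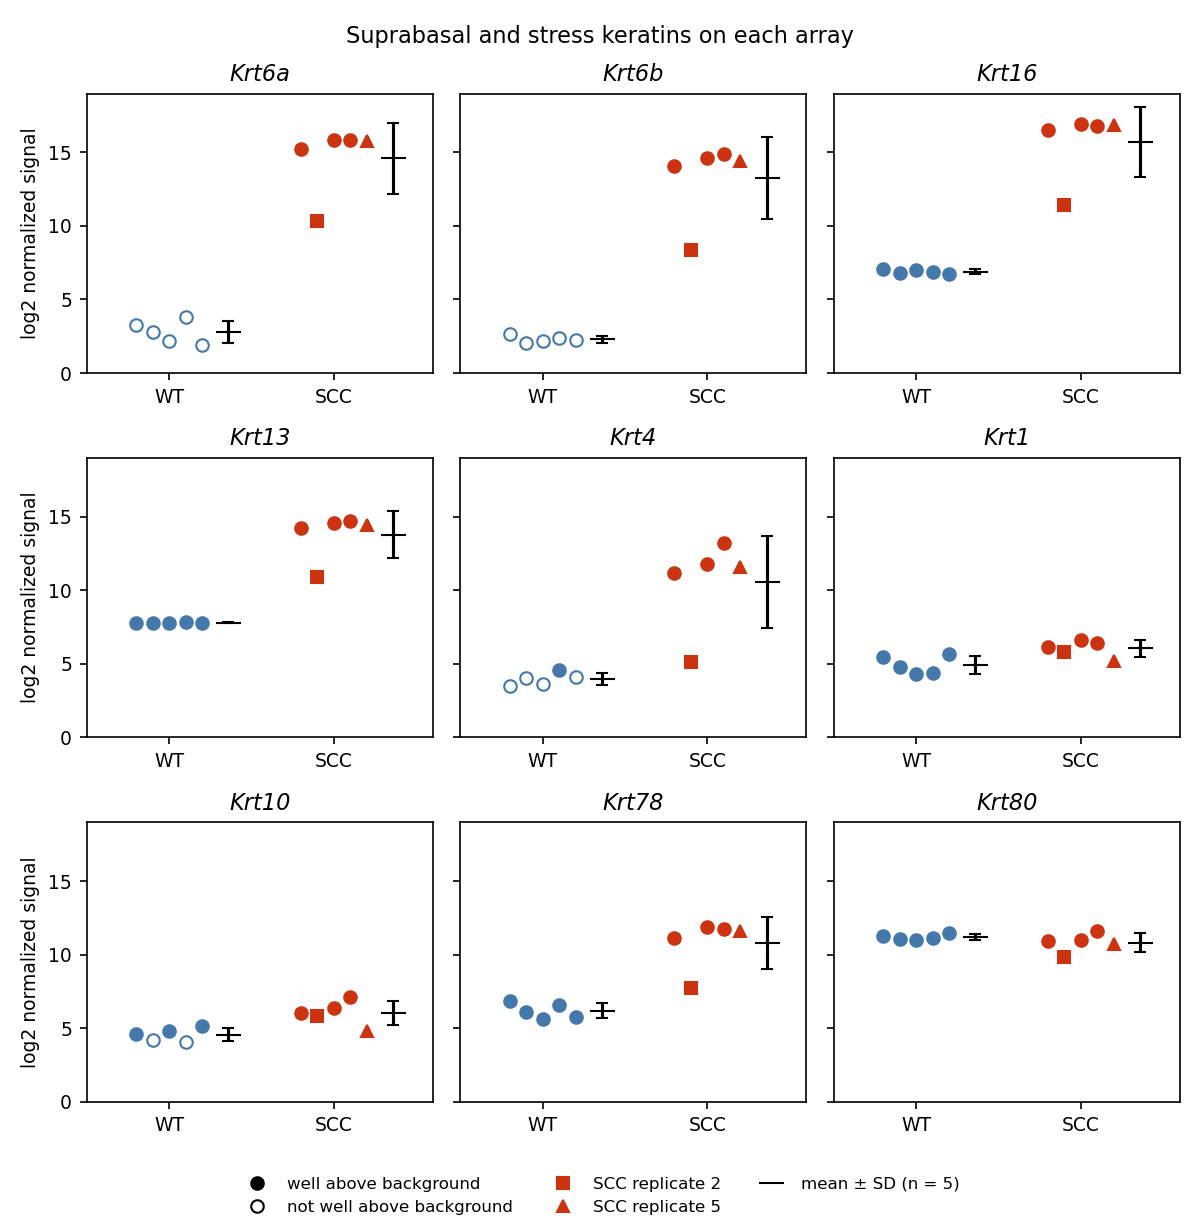
Log2 normalized signal of the 9 keratins on each array of the WT and SCC groups, with the mean and SD (n = 5). Open circles mark signals not well above background, the square is SCC replicate 2 and the triangle SCC replicate 5. SCC replicate 2 is the lowest SCC array for Krt6a, Krt6b, Krt16, Krt13, Krt4, Krt78 and Krt80, and Krt1, Krt10 and Krt80 have overlapping groups.

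Read through the brightest probes, the stress keratins had the largest differences of the 9 genes. The second Krt13 probe differed by 8.89, slightly more than Krt16 with 8.81. Krt6a, a type II chain, was at 3.30, 2.78, 2.15, 3.80 and 1.94 on WT replicates 1 to 5, none of them well above background, and at 15.22, 10.32, 15.81, 15.83 and 15.75 on SCC replicates 1 to 5. All SCC arrays lay far above all WT arrays, and SCC replicate 2 stood apart from the other 4. Because no WT array measured Krt6a, its fold is a bound, taken against the lowest signal that counted as well above background, and it was at least 1500-fold higher in SCC (adjusted p 2.19e-05), or at least 3140-fold without SCC replicate 2. Krt6b, its close paralogue, was at 2.66, 2.02, 2.20, 2.37 and 2.28 on the WT arrays, again none well above background, and at 14.09, 8.34, 14.61, 14.92 and 14.43 on the SCC arrays. Its order among the SCC arrays was that of Krt6a, with SCC replicate 2 the lowest and SCC replicate 4 the highest. Krt6b was at least 604-fold higher in SCC (adjusted p 5.53e-05), or at least 1420-fold without SCC replicate 2. Both genes are nearly identical in sequence, and the files do not show how far the probe of one reads the other.

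Krt16, the type I partner of the Krt6 chains, was measured on every array. It was at 7.07, 6.83, 7.01, 6.84 and 6.73 on the WT arrays and at 16.55, 11.44, 16.92, 16.80 and 16.83 on the SCC arrays. The WT arrays lay within 0.34 of each other, the 4 SCC arrays other than replicate 2 within 0.36, and SCC replicate 2 between them. The difference was 8.81 (SE 0.971, adjusted p 7.91e-05), a 450-fold higher signal, and the exact permutation p was 0.00794, the smallest that 5 against 5 arrays allow. Without SCC replicate 2 it was 9.88, a 943-fold higher signal.

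The mucosal pair Krt4 and Krt13 was higher as well. Krt13, the type I chain, was at 7.77, 7.77, 7.76, 7.83 and 7.81 on the WT arrays and at 14.22, 10.93, 14.56, 14.71 and 14.43 on the SCC arrays. The groups did not overlap, and the WT arrays lay within 0.06 of each other. The difference was 5.98 (SE 0.65, adjusted p 7.32e-05), a 63.0-fold higher signal, and without SCC replicate 2 it was 6.69, or 103-fold. A second, dimmer Krt13 probe, well above background on 2 WT arrays, was at 4.99, 3.26, 3.81, 6.48 and 3.52 on the WT arrays and at 14.49, 7.44, 14.81, 15.41 and 14.38 on the SCC arrays. It differed by 8.89 (SE 1.44, adjusted p 0.000775), in the same direction as the brighter probe but by more, and by 10.36 without SCC replicate 2.

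Krt4, the type II partner of Krt13, was at 3.52, 4.06, 3.64, 4.57 and 4.10 on the WT arrays, well above background only on WT replicate 4, and at 11.19, 5.14, 11.82, 13.19 and 11.58 on the SCC arrays. SCC replicate 2 lay only just above the WT arrays, and the other 4 SCC arrays spread over 2.01. The difference was 6.6 (SE 1.28, adjusted p 0.00217), and it was 7.97 without SCC replicate 2. Krt78, a type II keratin of suprabasal layers, was at 6.83, 6.13, 5.66, 6.57 and 5.80 on the WT arrays and at 11.14, 7.71, 11.89, 11.72 and 11.60 on the SCC arrays. It too had its lowest SCC value on replicate 2, without overlap with WT. The difference was 4.62 (SE 0.741, adjusted p 0.000733), a 24.5-fold higher signal, and without SCC replicate 2 it was 5.39, or 42.0-fold.

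The epidermal pair Krt1 and Krt10 differed by far less, and from low signals. Krt1, the type II chain, was at 5.44, 4.77, 4.31, 4.36 and 5.64 on the WT arrays and at 6.18, 5.81, 6.65, 6.45 and 5.23 on the SCC arrays. SCC replicate 5 was the lowest SCC array and lay below WT replicates 1 and 5. The difference was 1.16 (SE 0.342, adjusted p 0.0187), a 2.23-fold higher signal with a 95% interval of 0.39 to 1.92 log2 units, and the exact permutation p was 0.0317. Krt10, the type I chain, was at 4.58, 4.20, 4.80, 4.06 and 5.17 on the WT arrays, well above background on 3 of them, and at 6.03, 5.84, 6.35, 7.16 and 4.83 on the SCC arrays. Here too SCC replicate 5 was the lowest SCC array and overlapped with WT. The difference was 1.48 (SE 0.392, adjusted p 0.0112), a 2.78-fold higher signal with a 95% interval of 0.60 to 2.35, and the exact permutation p was 0.0159. Their calls did not hold after normexp background correction, where the differences were 0.38 for Krt1 and 0.44 for Krt10.

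Krt80, a type II keratin that lines cell borders near desmosomes, was bright in both groups. It was at 11.27, 11.09, 11.03, 11.15 and 11.49 on the WT arrays and at 10.93, 9.85, 11.02, 11.62 and 10.74 on the SCC arrays. The groups overlapped, with the highest value on SCC replicate 4 and the lowest on SCC replicate 2. The difference was -0.37 (SE 0.277, adjusted p 0.283) with a 95% interval of -0.99 to 0.24, so that the data leave room for up to a 2-fold lower signal, and without SCC replicate 2 it was -0.13.

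Slide 2 was the only slide with arrays of both groups, and 1 WT array stood there against 3 SCC arrays. With slide as a fixed block, which rests on these 4 arrays, Krt6a (adjusted p 0.0104), Krt6b (adjusted p 0.0217), Krt16 (8.24, adjusted p 0.0263) and Krt13 (5.42, adjusted p 0.0263) were called. Krt78 (4.45, adjusted p 0.0702), Krt4 (5.27, adjusted p 0.158), Krt10 (0.91, adjusted p 0.46) and Krt1 (0.57, adjusted p 0.561) were not, and Krt80 differed by -0.89 (adjusted p 0.257). Of all tested probes 2989 were called in that fit, against 6954 without the block. Every one of the 9 differences kept its direction within slide 2, where Krt6a, Krt6b and Krt4 were not well above background on the WT array and no size is given for the first pair.

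**Figure D2:**
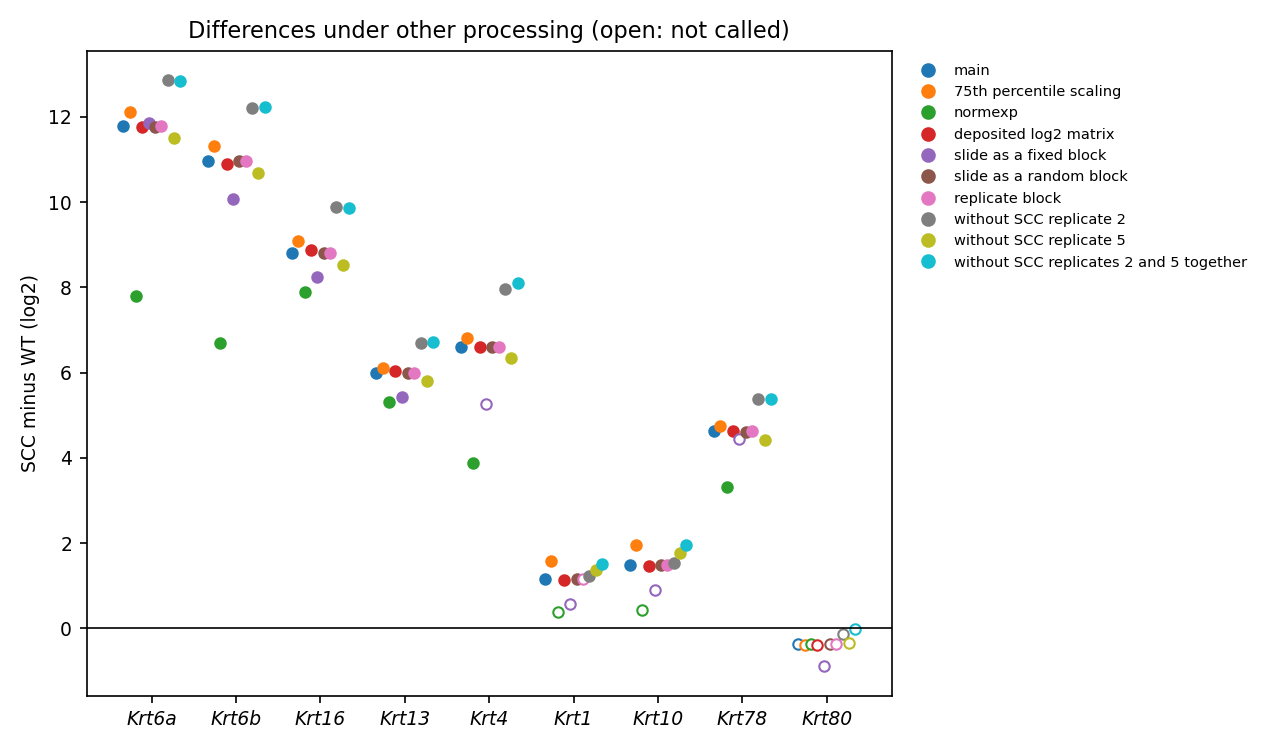
SCC minus WT difference (log2) of the 9 keratins under other processing, with open points where the gene was not called. The WT signals of Krt6a and Krt6b were not above background. Krt6a, Krt6b, Krt16 and Krt13 are called under every setting drawn, normexp gives smaller differences for all genes that were called, and leaving out SCC replicate 2 gives larger differences for Krt6a, Krt6b, Krt16, Krt13, Krt4 and Krt78.

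The 9 keratins did not vary alike among the tumours. Compared with the mean of the other 4 SCC arrays, SCC replicate 2 was at -6.81 for Krt4, -6.18 for Krt6b, -5.34 for Krt16, -5.33 for Krt6a, -3.88 for Krt78, -3.55 for Krt13, -1.23 for Krt80, -0.32 for Krt1 and -0.25 for Krt10. Over all tested probes the median of this deviation was 0.114, and the 5th and 95th percentiles were -1.42 and 1.43. SCC replicate 2 still stood above WT by at least 6.28 for Krt6a and at least 4.30 for Krt6b, and above the WT mean by 4.54 for Krt16 and by 3.14 for Krt13, whereas Krt4 was above it by 1.16 and Krt78 by 1.51. Relative to the other SCC arrays the basal keratins were there at -1.95 for Krt5, -2.94 for Krt14, -4.57 for Krt17 and 1.28 for Krt15.

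Marker genes of other cells were read on the same arrays, and SCC replicate 2 lay outside the range of the other SCC arrays for some lists and within it for others. Of 5 neutrophil markers 3 were called higher in SCC, and their mean log2 signal was 10.79 to 11.81 on the WT arrays, 10.64 on SCC replicate 2 and 12.95 to 13.14 on the other SCC arrays. All 5 endothelial markers were called lower, at 14 to 14.32 on the WT arrays, 12.80 on SCC replicate 2 and 11.88 to 12.12 on the others. Of 3 club cell markers 2 were called lower, at 17.50 to 18.10, 17.72 and 15.54 to 17.04 in the same order. Of 6 proliferation markers 5 were called higher, at 7.11 to 7.98, 8.98 and 10.12 to 10.50. Every marker of these 4 lists was well above background on all WT arrays. Of 5 alveolar type 1 markers 4 were called lower, at 14.15 to 14.64 in WT and 12.96 to 13.42 on the other SCC arrays, with SCC replicate 2 within the latter range at 13.35. SCC replicate 2 was also within that range for 4 ciliated cell markers, of which 1 was called lower (9.87 to 11.38 in WT, 10.12 on SCC replicate 2, 8.5 to 10.87 on the others), and for 5 skeletal muscle markers, of which 1 was called lower (6.98 to 9, 6.7 and 5.48 to 6.98). It lay nearer to WT than the other SCC arrays did for 5 alveolar type 2 markers, none of them called (15.72 to 15.82, 15.64 and 15 to 15.22), for 4 fibroblast markers, 2 of them called lower (14.20 to 14.43, 14.10 and 13.23 to 13.69), for 4 macrophage markers, 1 of them called higher (12.48 to 13.05, 12.63 and 13.67 to 13.81), and for 3 cardiac markers, 2 of them called lower (9.25 to 13.79, 9.53 and 6.78 to 8.02). Though not called, 3 of the alveolar type 2 markers passed the adjusted p, lower in SCC by less than 2-fold. Of 7 skin and hair markers, 2 were tested and called higher, at a mean of 3.63 to 3.82 in WT, 5.83 on SCC replicate 2 and 7.94 to 8.39 on the other SCC arrays, and 5 were too dim to test. The 2 tested were Lce1a1 and Krt86, well above background on 0 and 1 WT arrays, so that their WT mean is mostly background signal. The part of any of these markers in the keratin values was not tested.

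**Figure D3:**
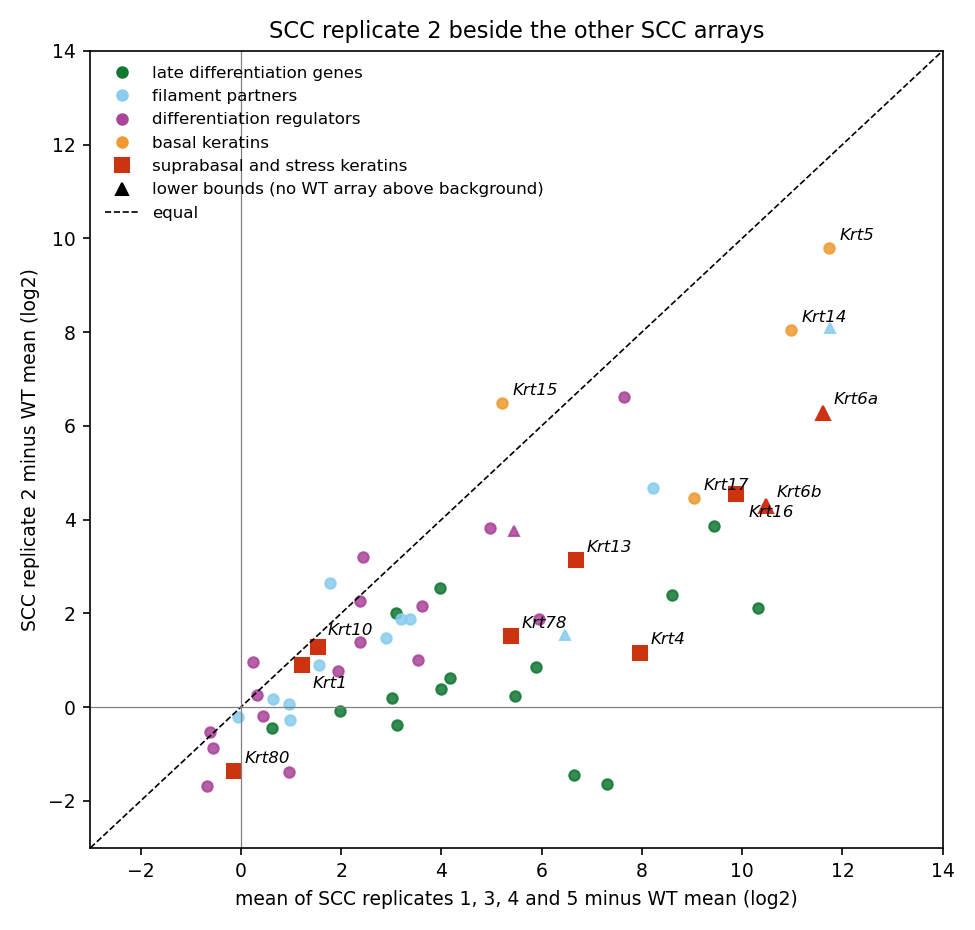
Difference from the WT mean (log2) on SCC replicate 2, against the same difference averaged over SCC replicates 1, 3, 4 and 5, for the 9 keratins (squares), the basal keratins and genes of late differentiation, filament partners and differentiation regulators. Triangles are genes above background on no WT array, with both values as lower bounds; Sprr3, Sprr1b and Casp14, above background on no WT and on 4 SCC arrays, are left out. Krt6a, Krt6b, Krt16, Krt13, Krt4 and Krt78 lie well below the dashed line of equal values, Krt1 and Krt10 close to it, and Krt15 above it.

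Partner chains were compared through the difference between 2 genes on each array, with the exact permutation test adjusted over 6 pairs. For the epidermal pair the difference of Krt1 was smaller than that of Krt10 by an amount within the spread between arrays (contrast -0.32, SE 0.3, adjusted p 0.464). For the mucosal pair Krt4 exceeded Krt13 by 0.63 (SE 0.725, adjusted p 0.533), and by 1.28 without SCC replicate 2 (adjusted p 0.0238), whereas after normexp the contrast was -1.43 (adjusted p 0.0119), in the opposite direction. These contrasts used the brighter Krt13 probe, whereas the second probe differed by 8.89, more than Krt4 with 6.6. Krt4 was well above background on 1 WT array, so that no direction holds for this pair across the processing tried. Krt16 rose less than Krt14, with a contrast of -1.58 (SE 0.503, adjusted p 0.0159), and this pair was measured on all 10 arrays.

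The contrasts that involve Krt6a or Krt6b rest entirely on WT signals below background for these genes. With those signals raised to the lowest level well above background, the contrasts become lower bounds. Krt6a then rose more than Krt16 by at least 1.74 (adjusted p 0.0238) and Krt6b by at least 0.43 (adjusted p 0.238). Krt6a minus Krt5 was at least -0.80 (adjusted p 0.438), a bound that gives no direction. With the signals as measured these contrasts were 2.98, 2.16 and 0.45 (adjusted p 0.0159, 0.0159 and 0.563), and after normexp they were -0.08, -1.17 and -1.97 (adjusted p 0.429, 0.0119 and 0.0119), the last 2 past the threshold in the opposite direction. On the 5 SCC arrays, where both chains were well measured, the Krt6a to Krt16 difference had an SD of 0.13 while Krt6a alone ranged over 5.51 and Krt16 over 5.48 log2 units. Without SCC replicate 2 these ranges were 0.61 and 0.36. This SD was the smallest of the 6 pairs. It was 0.438 for Krt6b minus Krt16, 0.437 for Krt1 minus Krt10, 1.57 for Krt4 minus Krt13, 1.53 for Krt6a minus Krt5 and 1.07 for Krt16 minus Krt14.

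Besides these genes, 34 other keratin genes had a probe, and 21 of them were tested. Of those 13 were called higher, 2 lower and 6 not at all, with a median difference of 1.95. The 4 basal keratins were among those called higher, Krt5 by 11.35 (SE 0.413, adjusted p 2.14e-07), Krt14 by 10.40 (SE 0.551, adjusted p 1.79e-06), Krt17 by 8.12 (SE 0.832, adjusted p 5.38e-05) and Krt15 by 5.46 (SE 0.289, adjusted p 1.79e-06). Without SCC replicate 2 the differences of Krt14 and Krt17 were 10.98 and 9.03. Krt20, a keratin of intestinal and urothelial lining cells, was higher by 7.07 (adjusted p 5.35e-05) from a signal above background on 1 WT array. Both genes called lower were Krt79, at 11.54 in WT and 7.98 in SCC (adjusted p 1.74e-06), and Krt222, which fell by 1.75 (adjusted p 0.00707) to signals well above background on 1 SCC array. Of the simple keratins Krt19 was higher by 1.15 and Krt18 by 1.00, and Krt7 (0.76, adjusted p 0.00287) and Krt8 (0.59, adjusted p 0.115) were not called; these 4 were named after their values had been seen. Krt18 lay at the 2-fold limit, and without SCC replicate 2 its signal was 1.7-fold higher, below that limit. Relative to the other SCC arrays SCC replicate 2 was at 1.18 for Krt18, 1.43 for Krt8, 0.46 for Krt19 and -0.62 for Krt7. With slide as a block, 8 other keratins were called higher and 1 lower.

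**Figure D4:**
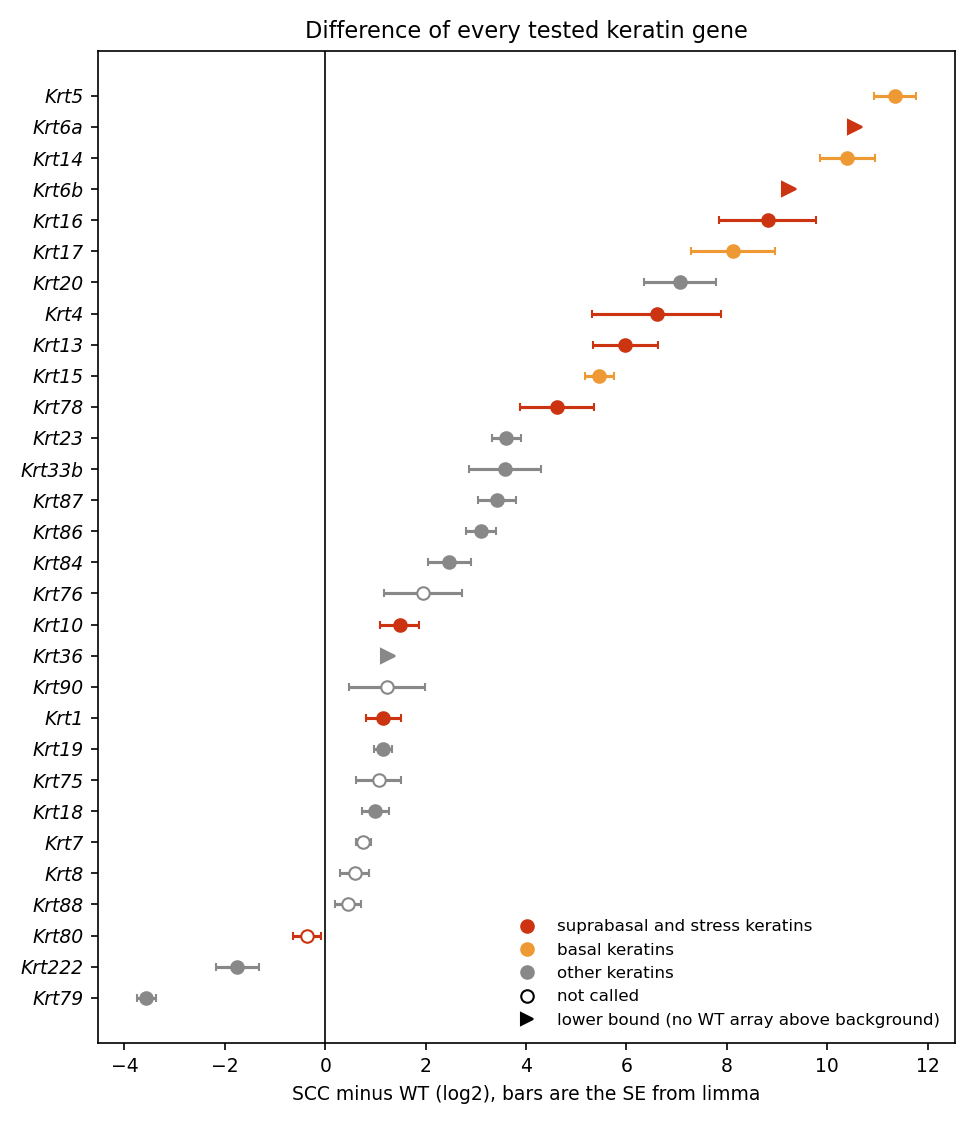
SCC minus WT difference (log2) of each tested keratin gene, with the SE from limma as bars open points where the gene was not called, and triangles at the lower bound where no WT array was above background. The bounds are 10.55 for Krt6a and 9.24 for Krt6b, beside 11.35 for Krt5 and 10.40 for Krt14, and Krt79 is at the opposite end.

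Genes of the late squamous programme, which act in the same suprabasal layers, were mostly higher. Of 18 tested, 17 were called higher and none lower, with a median difference of 4.05, or 3.75 with genes above background on no WT array at their bound. Among them were the cornified envelope precursor Sprr3, above background on no WT array and at least 174-fold higher (adjusted p 0.0021), Krtdap, a keratinocyte secreted protein above background on 1 WT array (8.67, adjusted p 0.00136), and the envelope precursor Sprr1a (8.31, adjusted p 0.000144). Without SCC replicate 2 the signal of Sprr3 was at least 614-fold and that of Sprr1a 688-fold higher, and the difference of Krtdap was 10.31. Sbsn, the exception, differed by 0.41 (adjusted p 0.178). The desmosomal genes Dsc1 and Dsg1a, which belong to the uppermost layers, were not tested, being well above background on 1 and on 0 SCC arrays. On SCC replicate 2 the mean log2 signal of the list was 7.53, against 6.68 to 7.01 on the WT arrays and 12 to 12.56 on the other SCC arrays, and relative to the other SCC arrays Krtdap was at -8.19. With slide as a block 3 of the genes were called.

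Proteins that anchor or scaffold keratin filaments followed. Of 12 tested, 8 were called higher and none lower, with a median difference of 2.28. The desmosomal plaque protein Pkp1 was above background on no WT array and at least 2080-fold higher (adjusted p 2.07e-06). The desmosomal cadherins Dsc2 (7.51, adjusted p 2.49e-05, above background on 1 WT array) and Dsg3 (at least 44.5-fold, adjusted p 0.00016) were higher too. Without SCC replicate 2 the signals of Pkp1 and Dsg3 were higher by at least 3460-fold and 88.2-fold, and the difference of Dsc2 was 8.22. On SCC replicate 2 the list was at 10.70, between WT (8.39 to 8.59) and the other SCC arrays (12.16 to 12.44).

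Of 17 regulators of squamous identity and differentiation, 10 were called higher and none lower, with a median difference of 2.17. Trp63, the master factor of stratified epithelia, was higher by 7.44 (SE 0.267, adjusted p 2.13e-07), the foregut factor Pax9 at least 34.6-fold (adjusted p 6.08e-06) and Tfap2c, which drives surface ectoderm fate and was above background on 1 WT array, by 5.14 (SE 0.775, adjusted p 0.000505), or by 5.95 without SCC replicate 2. Klf4 (-0.88, adjusted p 0.00773), Notch1 (-0.63, adjusted p 0.00478) and Notch3 (-0.60, adjusted p 0.000414), factors and receptors of suprabasal commitment, passed the adjusted p in the other direction at less than 2-fold and were named for that after their values had been seen. Other differentiation factors of the list were called higher, among them Zfp750 by 4.73 (adjusted p 1.11e-05), Ovol1 by 3.32 (adjusted p 4.33e-05) and Grhl1 by 3.02 (adjusted p 0.000787), also named after their values had been seen. Relative to the other SCC arrays Trp63 was at -1.03 on SCC replicate 2, and the list was at 10.44 there, against 8.82 to 9.07 in WT and 11.40 to 11.51 on the others.

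Among 17 genes known to induce or bind at the stress keratins, 9 were called higher and 1 lower, with a median difference of 1.04. The AP-1 member Fosl1 was higher by 3.09 (adjusted p 0.00104), and the EGF receptor ligands Areg and Ereg by 2.90 (adjusted p 9.47e-05) and 2.89 (adjusted p 0.0101). Fosl1 and Ereg were each well above background on 1 WT array, so that their differences, like those of Krtdap, Dsc2 and Tfap2c, are mostly taken from WT signals not above background. Jun, the AP-1 member called lower, fell by 1.67 (adjusted p 1.79e-06). On SCC replicate 2 the list was at 9.71, against 9.05 to 9.47 in WT and 10.33 to 10.58 on the other SCC arrays. Set against the latter, Areg and Ereg were at 1.36 and 1.09 there, whereas Fosl1 was at -1.66, Il1a at -3.89, Il1b at -2.44 and Tnf at -1.72, the last 3 named after their values had been seen. With slide as a block 3 of the genes were called higher and 1 lower.

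**Figure D5:**
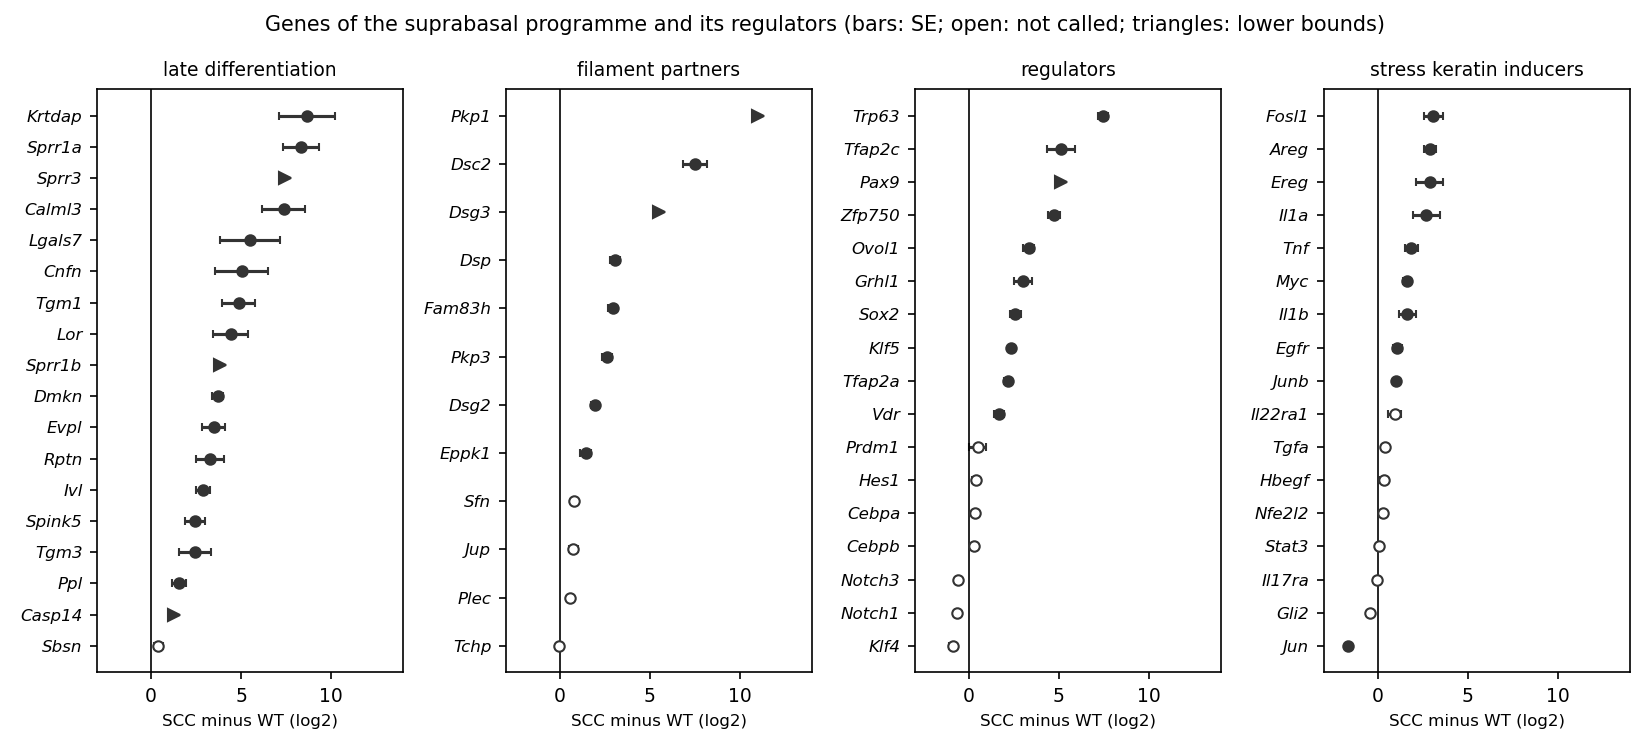
SCC minus WT difference (log2) with its SE for tested genes of the late squamous programme, filament partners, regulators and inducers of stress keratins; open points were not called and triangles are lower bounds for genes above background on no WT array. The late squamous and partner lists are nearly all to the right of 0, with medians of 4.05 and 2.28, and Jun is the called gene to the left.

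The genes whose pattern over the 10 arrays was most like the mean of the 9 keratins were sought among 15478 genes. They were the glycosyltransferase gene Mgat4a (r = 0.9991), the desmosomal cadherin gene Dsg3 (r = 0.998), the centromere protein gene Cenpt (r = 0.9979), the calcium-binding protein gene S100a14 (r = 0.9979) and the dual oxidase gene Duox1 (r = 0.9977). These correlations describe 10 arrays in 3 levels, WT, SCC replicate 2 and the other SCC arrays. Each was lower on SCC replicate 2 than on the other SCC arrays, with deviations of -2.29 for Mgat4a, -4.93 for Dsg3, -0.78 for Cenpt, -2.68 for S100a14 and -3.09 for Duox1.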

How the data were processed

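Total RNA of 5 WT lungs and 5 SCCs had been labelled with Cy3 and hybridised to one-colour Agilent mouse arrays, 1 per sample. Per the file headers the authors extracted spots with Agilent Feature Extraction, and the deposited scanner files hold background-subtracted processed intensities on a linear scale and flags. The authors also deposited a log2 matrix, which tracked the log2 values computed here array by array (r at least 0.999947 across probes, column medians 7.2) and served to choose the brightest probe of a gene and as an alternative. Following the methods of the study, the values were log2-transformed and quantile-normalized; limma replaced its analysis of variance.

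Spots flagged as outliers and control spots were dropped and the rest averaged by probe; 113 probes then lacked a value somewhere, and no probe was saturated. The flag for well above background was needed on at least 0.5 of a probe's spots, and on at least 4 arrays of a group for the probe to be tested. The fit of all 10 arrays used lmFit and eBayes of limma (version 3.58.1, R version 4.3.3), two-sided and without covariates. On simulated data for SCC against WT with 200 of 30267 probes changed by 2 log2 units, the fit recovered 77.5% with 5 false calls. The simulated noise was independent between probes and arrays, without slides or a deviating array, and far fewer probes changed than were called here. These figures check the fit and do not give the error rates of the real comparison. Where no WT array was well above background, folds are bounds against the dimmest signal on each WT array that passed that flag, or against the signal of the gene where that was higher, averaged over the WT arrays. Accessions were paired with symbols through a RefSeq table (GRCm38.p6), which named 28215 of 41174 probes. The files use another build, so only promoter windows carry coordinates. Groups and replicate numbers are those of the sample titles. The number of arrays limits the precision.

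Named besides the 9 keratins and their probes are the basal keratins and up to 5 other keratins called each way with the largest differences, the 3 largest called differences each way of a list, and the 5 non-keratin genes with the highest Pearson r to the members' mean. The 9 genes and the lists were chosen with earlier results of these data known. Alternatives were 75th percentile scaling, normexp (offset 50, on median signals because the files hold no mean signal), the deposited matrix, other filters, slide and replicate blocks, each array left out, other probes, and the methods' test. Chosen after seeing the data were leaving out SCC replicates 2 and 5 together, pair contrasts with signals not above background raised to that level, and list counts under the alternatives.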

Additional observations from a re-analysis of the deposited data

Results flagged for a closer look

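In 26 groups of 5 arrays of a single keratin, the gap between the highest or lowest array and its neighbour, divided by the range of the group, was above 0.71 in 10, where chance gives about 1 in 20 and genes on the same arrays are not independent.

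In 9 of the 10 cases SCC replicate 2 was far below the other SCC arrays. The gap was 0.89 for Krt6a (10.32 against at least 15.22), 0.874 for Krt6b (8.34 against at least 14.09), 0.933 for Krt16 (11.44 against at least 16.55), 0.869 for Krt13 (10.93 against at least 14.22), 0.751 for Krt4 (5.14 against at least 11.19) and 0.82 for Krt78 (7.71 against at least 11.14). Among the basal keratins it was 0.879 for Krt5 (15.60 against at least 17.45), 0.894 for Krt14 (14.34 against at least 17.09) and 0.953 for Krt17 (12.14 against at least 16.62). The remaining gap, 0.729, belonged to Krt14, which was highest on WT replicate 4 with 6.80, while no other WT array exceeded 6.29.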

How the results depend on the processing

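Krt6a, Krt6b, Krt16 and Krt13 were called under every alternative that gave a value for them, and all of the 9 keratins kept their direction. The 8 members called became 4 with slide as a fixed block, which rests on slide 2 with 1 WT array, and 4 with the filter on probes well above background on all arrays, which tested only Krt16, Krt13, Krt1, Krt78 and Krt80. With an array left out 8 were called each time. Krt1 was also lost under the methods' test at an unadjusted p of 0.01. The other keratins called went from 15 to 9 with slide as a block, and to 14 to 16 with an array left out.

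Of all tested probes 6954 were called, 3969 with normexp (1909 higher, 2060 lower), 2989 with slide as a block (1402 higher, 1587 lower), 14878 with no fold requirement (6790 higher, 8088 lower) and 6385 to 8135 with an array left out. The methods' test called 5867 probes and 7 of the 9 keratins at an unadjusted p of 0.01, and 6525 and 8 at a Benjamini-Hochberg adjusted p of 0.05. Scaling to the 75th percentile moved the median difference from -0.09 to 0.032 and called 6584 (3504 higher, 3080 lower). With slide as a random block, arrays of a slide correlated at -0.017. The list counts that moved were late squamous genes, 17 to 9 under the strict filter and 3 with slide as a block, filament partners, 8 to 5 under the strict filter, and inducers, 10 to 4 with slide as a block.

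Normexp reversed Krt4 minus Krt13 (-1.43, exact permutation test, adjusted p 0.0119), Krt6a minus Krt16 (-0.08, 0.429), Krt6b minus Krt16 (-1.17, 0.0119) and Krt6a minus Krt5 (-1.97, 0.0119). Raising signals not above background gave lower bounds, -0.80 for Krt6a minus Krt5, which shows no reversal, and 0.43 for Krt6b minus Krt16, past no threshold. All of these involve a gene with WT signals not above background, and the cause was not tested. Leaving out an array gave -0.53 to -0.14 for Krt1 minus Krt10, which passed without WT replicate 3 (adjusted p 0.0476, exact permutation test), and 0.21 to 1.28 for Krt4 minus Krt13, which passed without SCC replicate 2. Krt16 minus Krt14 kept its direction and call, from -1.72 to -1.10.

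No sign of pairing by replicate number was seen, although this cannot exclude it. Deviations of same-numbered arrays from their group means correlated at -0.103 to 0.009, and 0 arrays correlated best with their own number. With the replicate block 6571 probes were called, 6522 of them shared with the fit without it, and of the 9 keratins only Krt1 changed its call (1.16, adjusted p 0.0725).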
